A study of Homo sapiens with 31 samples.

Results

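The 8 genes described here are 3 FoxO transcription factor genes, FOXO1, FOXO3 and FOXO4, and 5 genes commonly counted among their targets or as marks of quiescent cells, PDK4, FBXO32, CCNG2, TXNIP and BCL6. They were picked by name, with no threshold on a measured value but with earlier results of these data known, and all 8 were found among the 56269 gene names of the count tables. Poly(A) RNA had been sequenced from MCF10A, an untransformed line of human mammary epithelium that depends on added growth factors. All groups had been starved for 2 to 3 days in medium without serum, EGF or insulin, which still held hydrocortisone, cholera toxin and albumin. Palbociclib groups were then given full growth medium with 1 µM palbociclib, an inhibitor of the kinases CDK4 and CDK6, and were collected at 9, 12, 15 and 24 h. DMSO groups were given the same medium with 0.1% DMSO, the vehicle, and were collected at 3, 6, 9, 12, 15 and 24 h. The starved cells at 0 h were the baseline, and nothing in the labels gives them a vehicle. The 11 groups had 3 libraries each, except for 2 (replicates 1 and 3) in both 24 h groups. The model is 1 cell line, and the labels do not say that replicates were separate cultures, and p-values therefore cover only the spread among these libraries.

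FoxO factors are forkhead transcription factors that stand downstream of insulin and growth factor receptors. When PI3K and AKT are active, AKT phosphorylates FoxO proteins, which then bind 14-3-3 proteins and leave the nucleus. In cells without growth factors FoxO proteins stay nuclear and drive genes that restrain the cell cycle, change fuel use and break down protein, among them some of the genes described here. This control acts on the proteins and was not measured, as the libraries hold mRNA only.

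Library totals ran from 10342358 to 20878364 counts, and 15787 genes were tested. Levels are CPM, the counts scaled to library size with TMM factors, so each level is a share of the library's mRNA, and fewer cells of a type cannot be told apart from less RNA per cell. All 7 epithelial and basal markers looked up (KRT5, KRT14, KRT17, CDH1, TP63, ITGB4 and LAMB3) had counts in every library. Of 8 markers of other cell types or of hormone-receptor-positive cells, PTPRC, CD3E, CDH5 and DES had at most 4 counts in any library. KDR, COL1A1 and ESR1 were detected, at 0.311 to 93.0, 10.7 to 29.3 and 0.0778 to 2.13 CPM.

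KDR, an endothelial receptor, moved in the same direction as most of the genes described here. It averaged 19.5 ± 7.6 CPM at DMSO 3 h and 0.505 ± 0.24 CPM at DMSO 6 h, against 89.0 ± 3.9 CPM at 0 h (SD, n = 3 libraries each). Of the 3 such markers that could be tested, 2 were lower at DMSO 3 h and 3 at DMSO 6 h. Among all tested genes, 34.4% and 39.5% were called lower at these times. Summed over the 8 markers the level was 37.4 to 54.0 CPM at DMSO 3 h and 17.2 to 19.4 CPM at DMSO 6 h, against 111 to 123 CPM at 0 h. Without KDR the sums were 26.7 to 30.1, 16.9 to 18.6 and 25.7 to 29.6 CPM in these groups. CDH5, the other endothelial marker, was at 0 in 24 of the 31 libraries. What part these markers had in the falls described here was not tested.

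Libraries of a group differed along a shared axis that held 27.5% of the variance within groups. Replicate 2 lay at one end of it and replicate 3 at the other at 0 h and at DMSO 3 to 15 h. In DMSO 24 h and in all 4 palbociclib groups replicate 3 instead lay on the side that replicate 2 held in those groups. At palbociclib 12 h replicate 2 lay opposite to replicate 3 (scores −12.9 and 7.84). The 24 h groups had no replicate 2, and the scores of 2 libraries mirror each other. The 5 libraries of replicate 3 in DMSO 24 h and the palbociclib groups were left out as a set. Each 24 h group then held 1 library, which was assumed to vary like the other groups. Values without these 5 libraries are given below for the 8 genes where a call described here was lost or a called value moved by over 1.5 times, and for the CCNG2 differences between palbociclib and DMSO.

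Promoter sequences are given for 3 of the genes, since 1 of them fell most (PDK4), 1 departed from the others (CCNG2) and 1 was the only gene with the FoxO motif searched (TXNIP). Each is the 250 bases before a RefSeq gene start in GRCh38.p14, printed 5′ to 3′ on the gene's strand. The TXNIP window is chr1:145996580-145996829 on the minus strand, the CCNG2 window chr4:77156957-77157206 on the plus strand and the PDK4 window chr7:95596517-95596766 on the minus strand. These RefSeq starts lie 21, 56 and 25 nt from the gene starts in the count tables. Capitals mark every match, on either strand, of 4 motifs: GTAAACA, the FoxO core; CAAAACA, the core of the insulin response element; CACGTG, the palindromic E-box; and CACGAG, the repeat of the carbohydrate response element known in TXNIP.
TXNIP: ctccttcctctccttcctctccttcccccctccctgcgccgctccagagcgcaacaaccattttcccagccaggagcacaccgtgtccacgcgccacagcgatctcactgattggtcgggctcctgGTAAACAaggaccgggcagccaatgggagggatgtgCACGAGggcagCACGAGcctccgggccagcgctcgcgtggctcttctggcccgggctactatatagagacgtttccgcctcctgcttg
CCNG2: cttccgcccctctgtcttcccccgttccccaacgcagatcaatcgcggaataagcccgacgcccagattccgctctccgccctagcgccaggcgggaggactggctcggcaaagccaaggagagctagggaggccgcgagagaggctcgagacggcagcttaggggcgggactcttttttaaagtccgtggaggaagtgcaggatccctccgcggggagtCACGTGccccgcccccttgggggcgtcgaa
PDK4: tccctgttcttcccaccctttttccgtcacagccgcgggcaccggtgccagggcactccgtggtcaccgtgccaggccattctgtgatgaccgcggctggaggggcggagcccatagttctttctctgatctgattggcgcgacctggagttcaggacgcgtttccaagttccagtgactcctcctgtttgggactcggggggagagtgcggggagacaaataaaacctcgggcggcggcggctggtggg
In TXNIP the FoxO core lay 124 to 118 bases before the start, and the CACGAG repeats lay 88 to 83 and 77 to 72 bases before it. In CCNG2 the E-box lay 30 to 25 bases before the start. In the PDK4 window none of the 4 motifs matched. Of all 35116 RefSeq windows of this length, 2.98% held GTAAACA, 4.3% CAAAACA, 6.34% CACGTG and 5.58% CACGAG, and no capitals overlap another motif. The 8 genes had 12 windows from 7 genes, as FBXO32 had none. GTAAACA matched in TXNIP only, CAAAACA in none, CACGTG in CCNG2 only, and CACGAG in TXNIP and BCL6. A match is a run of letters and not a measured binding site.

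After release into growth medium, 7 of the 8 genes, all but CCNG2, were below their 0 h levels at each of the 6 DMSO times and at each of the 4 palbociclib times. At 3 h with DMSO 7 genes were lower and 1 was higher than at 0 h, where 62.2% of all tested genes were called, 34.4% lower and 27.8% higher. At 6 h all 8 were lower, against 73.5% of tested genes called, 39.5% lower and 34.0% higher. The shares called lower were 39.9%, 39.6%, 39.3% and 38.9% at DMSO 9, 12, 15 and 24 h, and 40.8%, 40.4%, 39.9% and 36.9% at palbociclib 9, 12, 15 and 24 h. A call is an adjusted p below 0.05 in edgeR's quasi-likelihood test with Benjamini-Hochberg adjustment over all tested genes. The median log2 fold change of the 8 genes against 0 h was −2.04, −3.0, −3.12 and −3.03 at DMSO 3, 6, 9 and 15 h, and the median of all tested genes was −0.10, −0.08, −0.09 and −0.06 at these times. With such shares called, the sign alone says little, and the sizes of the changes are given gene by gene. Where libraries of different groups are said below to lie apart, this was not counted over all tested genes. Steps between neighbouring DMSO times were called lower for 29.8% of tested genes at 6 against 3 h, 16.6% at 9 against 6 h and 6.12% at 12 against 9 h, and higher for 18.1% and 9.07% in the last 2 of these.

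**Figure D1:**
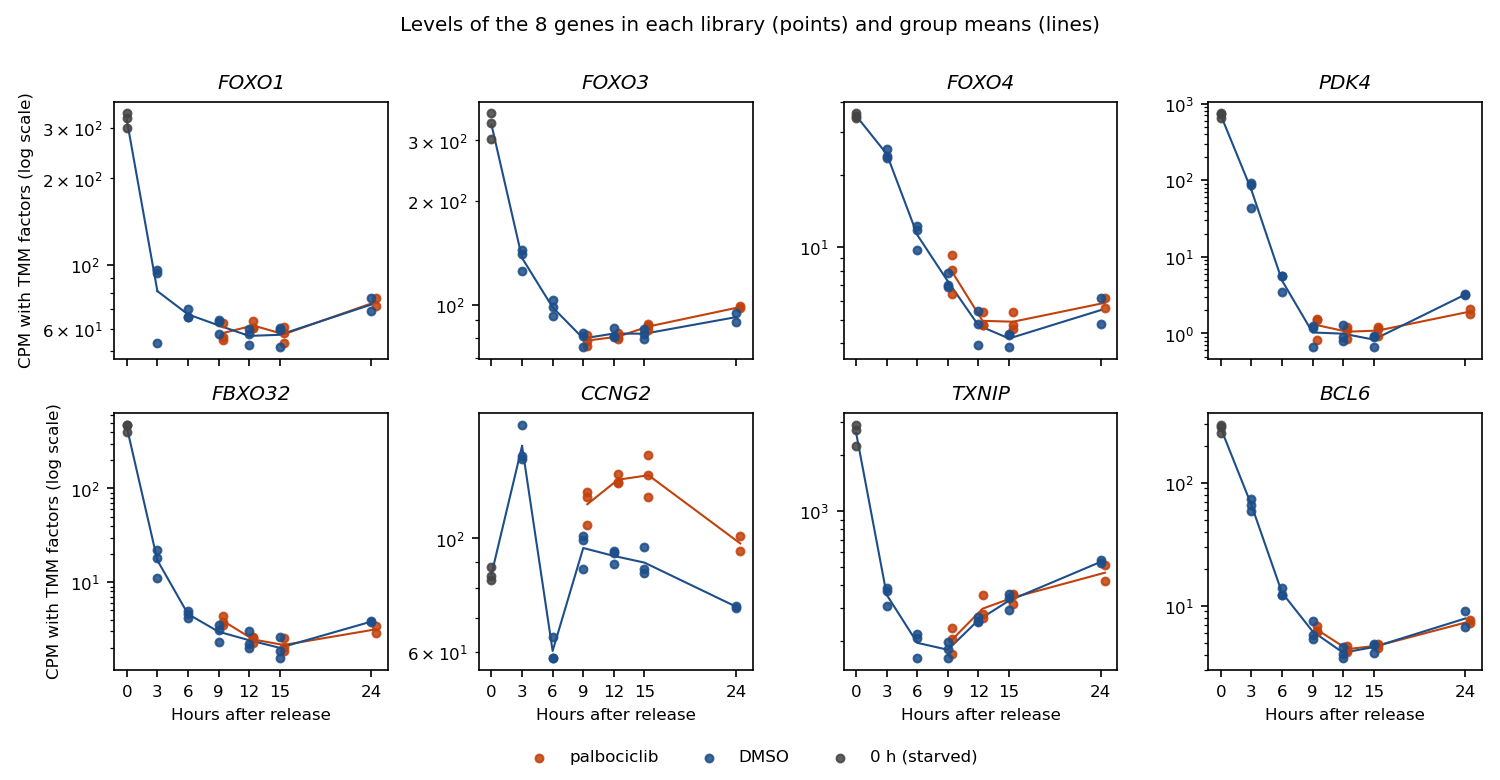
Level of each gene in every library, in CPM on a log axis, against hours after release, with points for libraries and lines for group means (palbociclib points are drawn slightly to the right). Only in CCNG2 do all palbociclib libraries lie above all DMSO libraries at each of the 4 shared times, and the other 7 genes are at their highest at 0 h.

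FOXO1, which drives gluconeogenic and stress genes in many tissues, had 324, 299 and 337 CPM at 0 h, 95.7, 53.5 and 93.9 CPM at DMSO 3 h, and 70.2, 65.6 and 66.0 CPM at DMSO 6 h. The DMSO 3 h libraries all lay far below those at 0 h, and replicate 2 lay well below the other 2. Its log2 fold change at DMSO 3 h against 0 h was −2.00 ± 0.12 (SE, adjusted p = 9.93e-16, edgeR), and it was −1.76 without that replicate. FOXO1 then stayed low, with 60.4, 51.8 and 59.2 CPM at DMSO 15 h. Of the 10 neighbouring pairs of groups in order of mean level, 8 had libraries that overlapped, and only 0 h stood clear of all others. The gene lies on chromosome 13 (40469953 to 40666597, minus strand, in the files' GRCh38.p7), and it shares 4.32% of its exonic bases with LINC00598 on the same strand.

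FOXO3, the family member best known from quiescent stem cells and long-lived animals, had 337, 304 and 360 CPM at 0 h. It had 141, 125 and 144 CPM at DMSO 3 h and 103, 92.7 and 98.6 CPM at DMSO 6 h. No library at 3 h overlapped one at 0 h, and none at 6 h overlapped one at 3 h. Against 0 h the log2 fold change was −1.29 ± 0.06 at 3 h and −2.07 ± 0.06 at 9 h. From 9 to 15 h the DMSO means lay between 79.7 and 82.4 CPM with overlapping libraries. FOXO3B, a near-identical copy on chromosome 17, had 9 to 38 counts a library, so reads shared by both copies may be missing from FOXO3 (chromosome 6, 108559835 to 108684774).

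FOXO4, the third ubiquitous family member, moved more slowly and was the lowest of the 3 per length of exon. It had 36.0, 35.2 and 34.3 CPM at 0 h, 25.7, 23.9 and 23.6 CPM at DMSO 3 h, and 9.73, 11.7 and 12.3 CPM at DMSO 6 h. By DMSO 15 h it had 4.38, 3.86 and 4.32 CPM, the lowest of its 11 group means. The 3 h libraries lay below all at 0 h, and the 6 h libraries below all at 3 h. FOXO4 had a log2 fold change against 0 h of −0.53 ± 0.09 (adjusted p = 1.32e-05, edgeR) at 3 h and −3.08 ± 0.12 at 15 h. Steps down were called from 3 to 6 h (−1.11 ± 0.10), from 6 to 9 h (−0.64 ± 0.12) and from 9 to 12 h (−0.59 ± 0.13, adjusted p = 0.00173). FOXO4 lies on chromosome X (71096197 to 71103535, plus strand) with no exonic overlap. FOXO6, the remaining family member, had 0 to 27 counts a library. It was called lower at DMSO 3 h than at 0 h, but that call was lost with DESeq2 and with no filter on low counts. It was also lost without replicate 1 or 2 of 0 h or replicate 2 or 3 of DMSO 3 h. FOXO1B, a copy of FOXO1, had no count in any library.

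PDK4, a mitochondrial kinase that shuts off pyruvate dehydrogenase and so spares glucose, showed the largest fall of the 8 genes. It had 748, 644 and 729 CPM at 0 h, 87.7, 43.9 and 92.8 CPM at DMSO 3 h, and 5.60, 5.68 and 3.47 CPM at DMSO 6 h. At DMSO 15 h it had 0.667, 0.936 and 0.893 CPM, or 38 counts over the 3 libraries. Each of these groups lay clear of the one before, and replicate 2 was the lowest at DMSO 3 h. Relative to 0 h the log2 fold change was −3.26 ± 0.15, −7.14 ± 0.19 and −9.70 ± 0.24 at DMSO 3, 6 and 15 h. What remained of the 0 h mean at these times was 10.6%, 0.696% and 0.118%. The means from 9 to 15 h (0.832 to 1.03 CPM) had overlapping libraries, and no step between them was called. PDK4 is on chromosome 7 (95583499 to 95596491, minus strand), and none of its exonic bases are shared with another gene.

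FBXO32, the gene of atrogin-1, a ubiquitin ligase subunit known from muscle wasting, had fallen furthest of the 8 by 3 h. It had 479, 401 and 471 CPM at 0 h, 22.2, 11.01 and 18.3 CPM at DMSO 3 h, 4.98, 4.14 and 4.63 CPM at DMSO 6 h, and 2.60, 1.54 and 1.86 CPM at DMSO 15 h. Each of these groups lay clear of the one before, and replicate 2 was again the lowest at 3 h. The log2 fold change against 0 h was −4.76 ± 0.13 (adjusted p = 2.78e-24, edgeR) at 3 h, where 3.81% of the 0 h mean remained, −6.63 ± 0.15 at 6 h and −7.84 ± 0.17 at 15 h. The gene is on chromosome 8 (123497889 to 123541206, minus strand).

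TXNIP, which binds thioredoxin and limits glucose uptake, was the most abundant of the 8 genes per length of exon in every group. It had 2733, 2233 and 2906 CPM at 0 h, 385, 307 and 372 CPM at DMSO 3 h, and 162, 197 and 181 CPM at DMSO 9 h. All libraries at 3 h lay below those at 0 h, and all at 9 h lay below those at 3 h. Against 0 h TXNIP had log2 fold changes of −2.89 ± 0.13 at 3 h and −3.87 ± 0.13 at 9 h, its lowest mean. Levels then turned: TXNIP had 269, 254 and 257 CPM at DMSO 12 h, all above the 9 h libraries, and the step from 9 h was a log2 fold change of 0.53 ± 0.12 (adjusted p = 0.00203, edgeR). The palbociclib groups also rose between 9 and 12 h, by 0.55 ± 0.12 (0.53 without the 5 libraries, adjusted p = 0.0171, edgeR), and 5.22% of tested genes were called higher in that step. TXNIP lies on chromosome 1 (145992435 to 145996600, minus strand).

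BCL6, a transcriptional repressor known as a FoxO target in lymphoid and leukaemia cells, had 283, 254 and 297 CPM at 0 h. It had 73.3, 59.0 and 66.0 CPM at DMSO 3 h, 12.3, 12.2 and 13.8 CPM at DMSO 6 h and 3.72, 4.08 and 4.62 CPM at DMSO 12 h. Each of these groups lay clear of the one before. The log2 fold change against 0 h was −2.08 ± 0.08, −4.45 ± 0.09 and −6.07 ± 0.11 at DMSO 3, 6 and 12 h, and 12 h was its lowest mean. The step from 9 to 12 h was −0.57 ± 0.15 (adjusted p = 0.00702, edgeR), and it was −0.43 with adjusted p = 0.0667 without replicate 3 of DMSO 9 h. BCL6 (chromosome 3, 187721377 to 187745727, minus strand) shares 8.24% of its exonic bases with genes on the opposite strand, and reads were counted without strand.

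**Figure D2:**
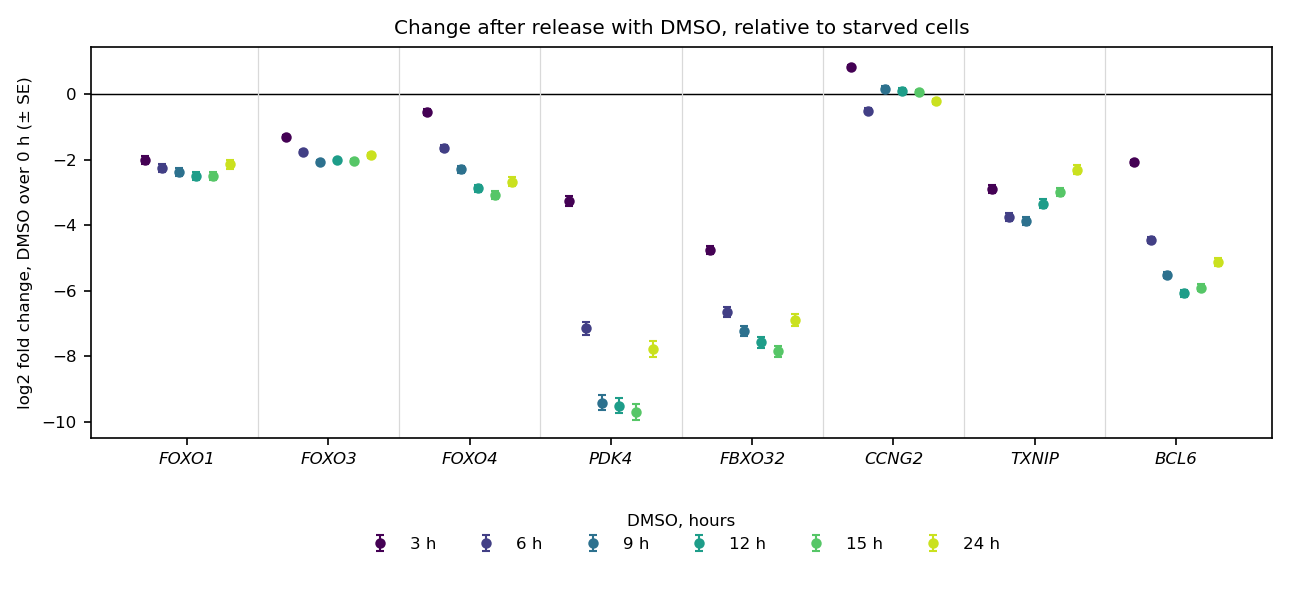
Log2 fold change of each gene at each DMSO time against 0 h, from 1 edgeR fit, with bars of 1 SE. At 3 h FBXO32 is at −4.76 and FOXO4 at −0.53, by 15 h PDK4 is at −9.70, and CCNG2 alone crosses 0.

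CCNG2, the gene of cyclin G2, an unconventional cyclin linked to cell cycle arrest, took another course. It had 84.3, 87.9 and 83.1 CPM at 0 h, 143, 167 and 145 CPM at DMSO 3 h, and 58.5, 64.2 and 58.4 CPM at DMSO 6 h. All libraries at 3 h lay above, and all at 6 h below, those at 0 h. The log2 fold change against 0 h was 0.83 ± 0.07 (adjusted p = 8.47e-12, edgeR) at 3 h and −0.49 ± 0.07 (adjusted p = 5e-07) at 6 h, and the step between these times was −1.33 ± 0.07. From 6 to 9 h it rose again by 0.66 ± 0.07, to 87.1, 99.2 and 101 CPM at DMSO 9 h. The 9 h libraries overlapped those at 0 h (0.17 ± 0.07, adjusted p = 0.0327, edgeR), among 35.3% of tested genes called higher, and that call was lost without replicate 2 or 3 of DMSO 9 h or replicate 3 of 0 h, at adjusted p of 0.115, 0.135 and 0.0891. At 12 and 15 h the differences from 0 h were 0.12 ± 0.07 and 0.07 ± 0.07 (adjusted p = 0.132 and 0.347), and the 12 h call was gained without replicate 1 of 0 h (0.21, adjusted p = 0.0258). At DMSO 24 h CCNG2 was lower than at 0 h (−0.21 ± 0.08, adjusted p = 0.0207, edgeR). That call was lost without either DMSO 24 h library, without replicate 1 or 2 of 0 h, and without the 5 libraries (−0.13, adjusted p = 0.322). CCNG2 lies on chromosome 4 (77157151 to 77433388, plus strand) with no exonic overlap.

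Set per kilobase of exon, the order of the genes at DMSO 15 h differed from that at 0 h. At DMSO 15 h the means in CPM per kb were 91.1 ± 9.0 for TXNIP, 12.0 ± 0.78 for CCNG2, 10.7 ± 0.38 for FOXO3 and 9.16 ± 0.75 for FOXO1. Below these came FOXO4 at 1.21 ± 0.083, BCL6 at 0.776 ± 0.067, FBXO32 at 0.270 ± 0.073 and PDK4 at 0.184 ± 0.032 (SD, n = 3 libraries each). At 0 h TXNIP was also first, at 724 ± 96, but PDK4 was second, at 156 ± 12, followed by FBXO32 at 60.9 ± 5.8 and FOXO1 at 51.3 ± 3.1. BCL6 was at 46.9 ± 3.7 and FOXO3 at 43.2 ± 3.6. CCNG2 at 11.4 ± 0.33 and FOXO4 at 10.2 ± 0.25 were last.

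Between 15 and 24 h with DMSO, 6 of the 8 genes were called higher and 1 lower, while 29.6% of all tested genes were called, 16.5% higher and 13.0% lower. PDK4 had 3.19 and 3.28 CPM at DMSO 24 h, against 0.667, 0.936 and 0.893 CPM at DMSO 15 h, a log2 fold change of 1.93 ± 0.49 (adjusted p = 0.00273, edgeR). BCL6 had 6.66 and 9.09 CPM at DMSO 24 h, against 4.15, 4.90 and 4.76 CPM at DMSO 15 h (0.79 ± 0.15). TXNIP had 523 and 544 CPM at DMSO 24 h, against 340, 357 and 294 CPM at DMSO 15 h (0.69 ± 0.13). In each of the 8 genes the libraries of the 2 times did not overlap, but this was not counted over all tested genes. With 2 libraries against 3, a lack of overlap says little by itself. FBXO32 (0.96 ± 0.30), FOXO4 (0.41 ± 0.16) and FOXO1 (0.35 ± 0.13) were also called higher, at adjusted p of 0.0156, 0.0436 and 0.0455, and FOXO3 was not (0.16 ± 0.07, adjusted p = 0.0758). CCNG2 was lower at 24 h than at 15 h (−0.28 ± 0.08, adjusted p = 0.00782). These calls rest on 2 libraries at 24 h: without the 5 libraries named above, of which 1 is replicate 3 of DMSO 24 h, 2 genes were called higher, PDK4 (1.91, adjusted p = 0.0394) and TXNIP (0.66, adjusted p = 0.00199), and none lower. FOXO4 was then at 0.20 and BCL6 at 0.52 (adjusted p = 0.56 and 0.077), and FBXO32 at 0.96 and FOXO1 at 0.43 (adjusted p = 0.119 and 0.104). The FOXO1 call was lost without any single library of these groups (adjusted p = 0.0513 to 0.191), and the FOXO4 call without any 1 of them except replicate 1 of DMSO 24 h. Without replicate 2 of DMSO 15 h 3 genes were called higher. The CCNG2 call was lost without replicate 1 or 3 of DMSO 24 h or replicate 3 of DMSO 15 h. At 24 h the levels were still far below those at 0 h, by log2 fold changes of −7.77 ± 0.24 for PDK4, −6.88 ± 0.18 for FBXO32 and −2.30 ± 0.14 for TXNIP.

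With palbociclib, 3 of the 8 genes (FOXO1, TXNIP and BCL6) were called higher at 24 h than at 15 h and 1 (CCNG2) lower, among 20.5% of tested genes called, 11.2% higher and 9.31% lower. BCL6 had 7.67 and 7.21 CPM at palbociclib 24 h, against 4.86, 4.54 and 4.79 CPM at palbociclib 15 h (0.65 ± 0.16, adjusted p = 0.00355, edgeR). The libraries of the 2 times did not overlap in any of the 8 genes, including those that were not called. Here too it was 2 libraries against 3, and the lack of overlap was not counted over all tested genes. TXNIP had a log2 fold change of 0.44 ± 0.13 and FOXO1 one of 0.37 ± 0.14 (adjusted p = 0.0149 and 0.0479). The FOXO1 call was lost without any single library of these groups (adjusted p = 0.0744 to 0.294). PDK4 was at 0.81 ± 0.55 (adjusted p = 0.348). Only 1 gene was called higher without replicate 1 of palbociclib 15 h or without replicate 3 of palbociclib 24 h, and none without the 5 libraries, where BCL6 was at 0.69, TXNIP at 0.31 and FOXO1 at 0.26 (adjusted p = 0.0523, 0.272 and 0.488). CCNG2 was lower (−0.45 ± 0.08, adjusted p = 0.000113), also without the 5 libraries (−0.42, adjusted p = 0.0231). A test of whether this late step differed between palbociclib and DMSO was made as an interaction. No gene of the 8 was called in it, where 2.98% of tested genes were called. The log2 differences ran from −1.13 ± 0.75 for PDK4 to 0.03 ± 0.10 for FOXO3. With so small a share called, the lack of a call among 8 genes does not show that the step was alike.

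Palbociclib was compared with DMSO at the same times. Of the 8 genes, 1 was called at each time, CCNG2, and it was higher with palbociclib. Over all tested genes 1.19%, 5.64%, 10.9% and 18.0% were called at 9, 12, 15 and 24 h, with 0.114%, 0.830%, 2.15% and 5.76% called higher. CCNG2 had 106, 120 and 123 CPM at palbociclib 9 h, against 87.1, 99.2 and 101 CPM at DMSO 9 h. It had 128, 133 and 129 CPM at palbociclib 12 h, against 89.2, 93.7 and 94.4 CPM at DMSO 12 h. At both times every palbociclib library lay above every DMSO library. At 15 h it had 120, 145 and 133 CPM with palbociclib and 87.1, 85.8 and 96.4 CPM with DMSO, and at 24 h it had 101 and 94.4 CPM with palbociclib and 73.3 and 73.9 CPM with DMSO. There too the groups did not overlap. The lack of overlap was not counted over all tested genes, and with 2 libraries against 2 at 24 h it says little by itself. The log2 fold change was 0.28 ± 0.07 at 9 h (adjusted p = 0.0339), 0.49 ± 0.07 at 12 h (4.64e-06), 0.57 ± 0.07 at 15 h (2.2e-07) and 0.41 ± 0.09 at 24 h (0.00102), by edgeR's quasi-likelihood test. The 9 h call was lost without replicate 1 or 2 of DMSO 9 h and without replicate 2 or 3 of palbociclib 9 h, at adjusted p of 0.336, 0.0539, 0.212 and 0.26. Without the 5 libraries CCNG2 was at 0.25 at 9 h (adjusted p = 0.396, edgeR). It was then called at 12 and 15 h, at 0.51 and 0.57 (adjusted p = 0.000113 and 1.28e-05, edgeR). At 24 h it was then at 0.45, from 1 library in each group, so those groups gave no measure of their own spread.

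**Figure D3:**
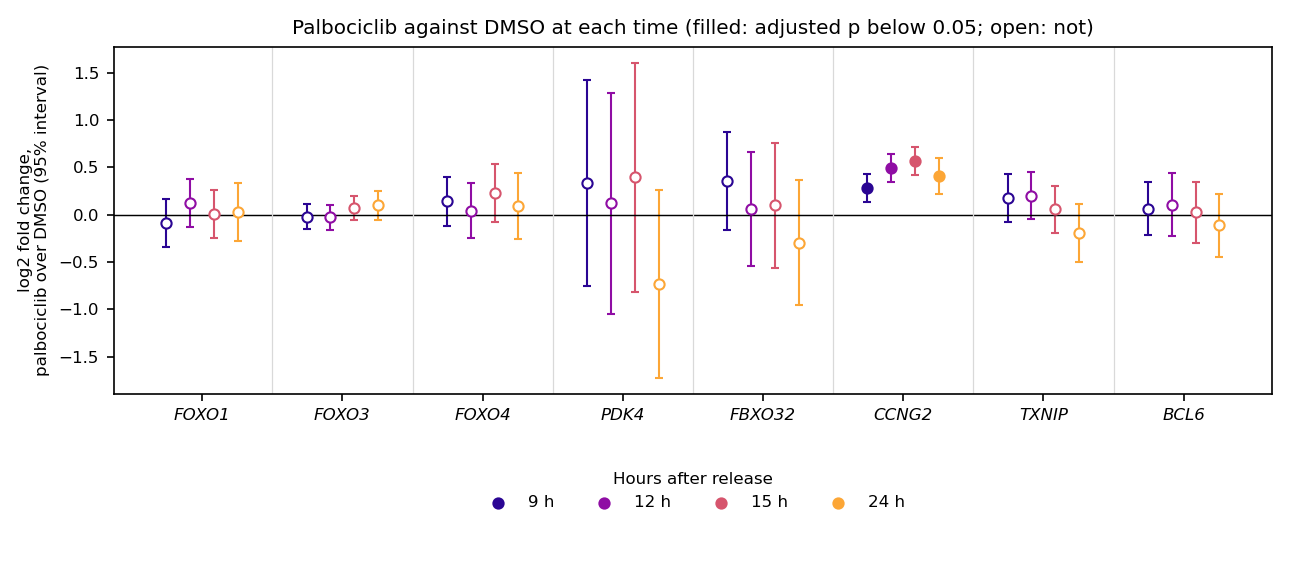
Log2 fold change of palbociclib over DMSO at 9, 12, 15 and 24 h for each gene, with 95% intervals and filled points where the adjusted p was below 0.05. CCNG2 lies at 0.28 to 0.57 and is filled at all 4 times, and no other point is filled.

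Growth of the CCNG2 difference from 9 to 15 h was 0.28 ± 0.10 on the log2 scale and did not pass the test of the interaction (adjusted p = 0.141, edgeR), where 4.05% of tested genes were called. It did pass without replicate 1 of DMSO 9 h (0.36, adjusted p = 0.0421) or of palbociclib 15 h (0.38, adjusted p = 0.0172). From 15 to 24 h the difference changed by −0.16 ± 0.11 (adjusted p = 0.592), where 2.98% were called. From 9 to 24 h it changed by 0.12 ± 0.11 (adjusted p = 0.574), where 10.2% were called. Over all 24 interaction values of the 8 genes none was called in the main edgeR fit or by DESeq2. In that edgeR fit 1 had an unadjusted p below 0.05. Against 0 h, CCNG2 was higher at palbociclib 9, 12, 15 and 24 h, by 0.46 ± 0.07, 0.61 ± 0.07, 0.64 ± 0.07 and 0.20 ± 0.08, and 34.9%, 35.0%, 35.1% and 34.3% of tested genes were called higher in these comparisons. The 24 h call (adjusted p = 0.0291) was lost without replicate 1 of palbociclib 24 h or replicate 3 of 0 h, and without the 5 libraries the value was 0.32 (adjusted p = 0.0127).

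For the other 7 genes, none of the 28 differences between palbociclib and DMSO was called in the main edgeR fit or by DESeq2. None had an unadjusted p below 0.05 in that edgeR fit. Their log2 fold changes ran from −0.73 to 0.40 with adjusted p from 0.33 to 0.982. The intervals show what size of change each gene still allows. For FOXO3 the 95% intervals over the 4 times lay within −0.16 and 0.25, for FOXO1 within −0.34 and 0.38, and for FOXO4 within −0.26 and 0.53. For BCL6 they lay within −0.44 and 0.44, and for TXNIP within −0.50 and 0.45. The low counts of PDK4 and FBXO32 after release left wide intervals, within −1.72 and 1.60 and within −0.95 and 0.87. PDK4 had 1.80 and 2.06 CPM at palbociclib 24 h, against 3.19 and 3.28 CPM at DMSO 24 h. The libraries did not overlap, but with 2 against 2 this says little, and it was not counted over all tested genes. The difference did not pass the main test (−0.73 ± 0.47, adjusted p = 0.33, edgeR). It was called only with no filter on low counts (−0.75, adjusted p = 0.0346, edgeR). These intervals do not show that the drug left the genes unchanged.

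Likeness was measured as Pearson's r between 2 genes' 11 group means of log2 CPM, over groups that share 1 time course. PDK4 was most like ALDH3A2, BCL6 and OTUD1 (r = 0.998, 0.995 and 0.995), and BCL6 most like ALDH3A2, DDB1 and CAMLG (0.996, 0.995 and 0.995). FOXO1 was nearest to LETMD1, SNHG8 and CITED2 (0.993, 0.991 and 0.988), FOXO3 to KIAA0141, TMEM42 and CCDC6 (0.992, 0.992 and 0.991) and FOXO4 to SH3YL1, MXI1 and IGBP1 (0.997, 0.997 and 0.996). For FBXO32 the nearest were SNHG7, NOTCH1 and LRRC37B (0.990, 0.989 and 0.988), and for TXNIP they were MOCS1, MRPS18B and TTBK2 (0.991, 0.982 and 0.977). CCNG2 had a weaker nearest gene, SERTAD3 (0.913), followed by USP6 and SYVN1 (0.894 and 0.889). Among the 8 genes, CCNG2 had r between −0.19 and 0.01 with each of the others. Pairs without CCNG2 ran from r = 0.5575 for FOXO4 and TXNIP to 0.995 for PDK4 and BCL6, and FOXO1 and FOXO3 had r = 0.974.

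Other genes described as FoxO targets were taken as 4 lists, and most of their tested members were also lower after release. The lists do not separate genes that FoxO factors raise from genes that they lower. The counts in each list are to be read against all tested genes, of which 27.8% were higher and 34.4% lower at DMSO 3 h, and 34.0% higher and 39.5% lower at DMSO 6 h. Of 11 cell cycle and growth targets, 4 were higher and 7 lower at 3 h, and 1 was higher and 8 lower at 6 h, with median log2 fold changes of −0.53 and −1.30 against 0 h. CITED2, a transcriptional coregulator, had a log2 fold change of −3.09 ± 0.09 at DMSO 3 h, and CDKN1B, which codes for the CDK inhibitor p27, one of −1.96 ± 0.10. In the other direction GADD45A, a DNA damage and stress response gene, was higher by 2.19 ± 0.09 and CDKN1A, the gene of the CDK inhibitor p21, by 1.63 ± 0.08 at 3 h. At 6 h BTG1, an antiproliferative gene that shares 10.4% of its exonic bases with a gene on its own strand, was lower, at −2.49 ± 0.06, as was MXI1, a MYC antagonist, at −1.64 ± 0.07, while CCND2, the gene of cyclin D2, was higher by 0.89 ± 0.21. All tested genes had medians of −0.10 at 3 h and −0.08 at 6 h.

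Metabolic and insulin feedback targets were lower in 10 of 10 tested at 3 h and in 9 of 10 at 6 h, with 1 higher (medians −1.02 and −2.53), where 34.4% and 39.5% of all tested genes were lower. IRS2, the adaptor of the insulin receptor, had a log2 fold change of −3.79 ± 0.12 at DMSO 6 h, and PIK3IP1, an inhibitor of PI3K, one of −4.42 ± 0.17. SESN1, a stress sensor that restrains mTORC1, fell by 3.16 ± 0.09 on this scale at 3 h. EIF4EBP1, a repressor of cap-dependent translation, was higher at 6 h by 0.22 ± 0.09 (adjusted p = 0.0246, edgeR), a call lost without replicate 2 of DMSO 6 h or replicate 3 of 0 h. The liver genes PCK1, G6PC and IGFBP1 were too low to test.

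Of 9 tested atrophy and autophagy targets, 2 were higher and 7 lower at 3 h, and 1 was higher and 8 lower at 6 h (medians −0.44 and −0.68), beside the same all-gene shares of 34.4% and 39.5% lower. ULK1, the kinase that starts autophagy, had a log2 fold change of −3.27 ± 0.09 at DMSO 6 h, and GABARAPL1, which builds autophagosome membranes, one of −2.60 ± 0.08. MAP1LC3B, another autophagosome gene, was higher by 0.65 ± 0.05 at 3 h. TRIM63, the gene of MuRF1, a muscle ubiquitin ligase often named with FBXO32, was too low to test. Among 7 tested death and oxidant defence targets, 1 was higher and 5 lower at 3 h, and 5 were lower at 6 h (medians −0.73 and −2.01). Without replicate 1 of 0 h 2 of the 7 were called higher at 6 h. TNFSF10, the gene of the death ligand TRAIL, was at −5.97 ± 0.21 at DMSO 6 h, and BCL2L11, the gene of the death protein BIM, at −2.14 ± 0.08. FASLG was too low to test.

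Regulators of FoxO were called in both directions. At 3 h 9 of the 17 tested were higher and 6 lower, and at 6 h 8 were higher and 6 lower (medians 0.17 and 0.22). Of all tested genes, 27.8% were higher and 34.4% lower at 3 h, and 34.0% and 39.5% at 6 h. The share of lower regulators was thus near that of all genes. The share of higher regulators was above that of all genes, and the list was not tested as a set. The 14-3-3 genes YWHAB and YWHAZ were higher at DMSO 6 h by 1.24 ± 0.07 and 1.02 ± 0.07, and AKT1, the kinase that phosphorylates FoxO, by 0.93 ± 0.07. SGK1, a related kinase, was lower at 3 h (−2.27 ± 0.17). Of 10 tested paralogues of the target genes, 6 were lower at 3 h, and 1 was higher and 7 lower at 6 h (medians −0.29 and −0.62), where 34.4% and 39.5% of all tested genes were lower. The higher count was 1 at 3 h without replicate 1 of 0 h or replicate 3 of DMSO 3 h, and 2 at 6 h without replicate 1 of 0 h. CCNG1, the nearest relative of CCNG2, was lower at 3 h (−0.67 ± 0.06) and at 6 h (−1.50 ± 0.06). PDK1, a relative of PDK4, was higher at 6 h by 0.61 ± 0.09, and PDK2 was lower, at −1.67 ± 0.15, with 38.6% of its exonic bases shared with another gene.

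**Figure D4:**
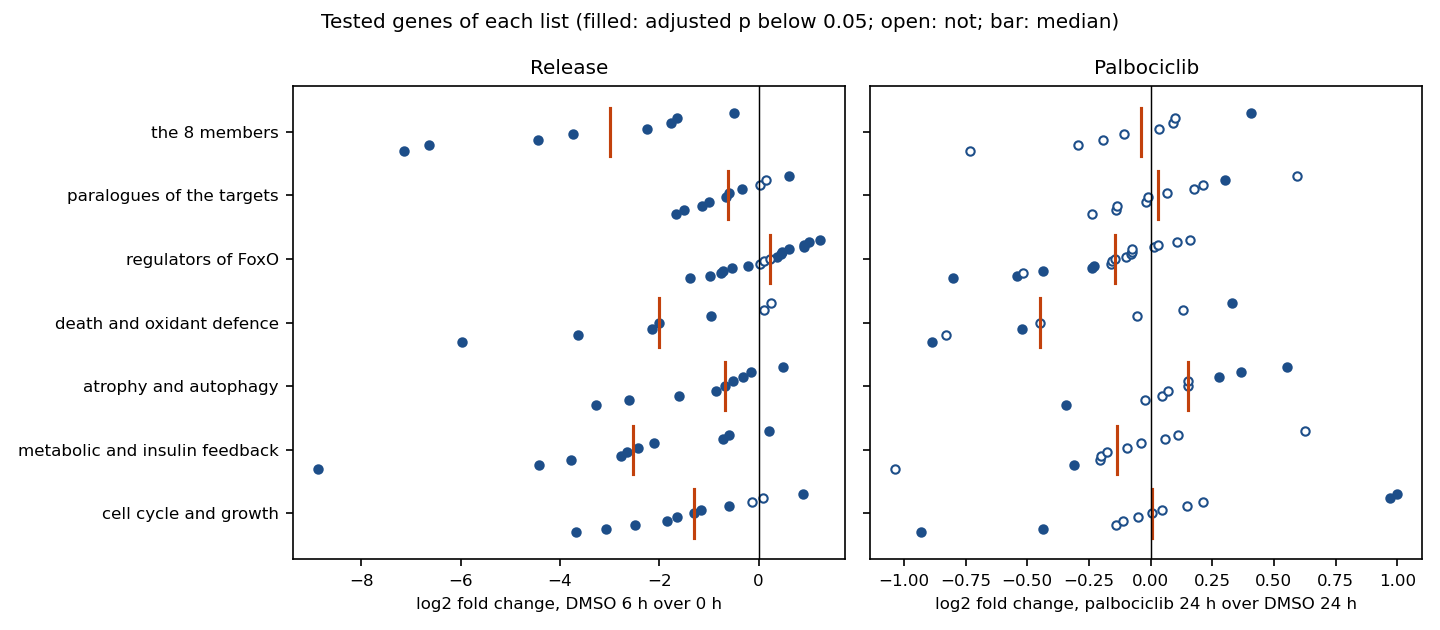
Log2 fold change of each tested gene of the lists, at DMSO 6 h over 0 h (left) and at palbociclib 24 h over DMSO 24 h (right), for 6 lists (4 of targets, regulators and paralogues), with bars at list medians and the 8 members in the top row. On release the 8 members have a median of −3.0 and the regulators one of 0.22, and with palbociclib the medians of the 6 lists lie between −0.45 and 0.15.

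Between palbociclib and DMSO, genes of these lists were called in both directions. At 24 h, where 18.0% of tested genes were called, 5.76% higher and 12.3% lower, 2 of 11 cell cycle and growth targets were higher and 2 lower, 1 of 10 metabolic targets was lower, and 3 of 9 atrophy and autophagy targets were higher and 1 lower. Of 7 death and oxidant defence targets 1 was higher and 2 lower, of 17 regulators 5 were lower, and of 10 paralogues 1 was higher. MXD4, a MYC antagonist, was higher with palbociclib by 0.49 ± 0.06, 0.61 ± 0.06 and 1.00 ± 0.07 at 12, 15 and 24 h. SKP2, a ubiquitin ligase subunit that targets FOXO1 and p27, was lower, at log2 fold changes of −0.29 ± 0.07, −0.65 ± 0.07, −0.91 ± 0.07 and −0.80 ± 0.08 at 9, 12, 15 and 24 h. CDKN1B was lower at 24 h (−0.93 ± 0.12), and ULK2, a relative of ULK1, and BCL2L11 were lower at 15 h (−0.38 ± 0.06 and −0.71 ± 0.11). PINK1, a mitophagy kinase with 39.4% of its exonic bases shared with another gene, was higher at 24 h by 0.55 ± 0.09. The SKP2 call at 9 h (adjusted p = 0.0227, edgeR) was lost without replicate 1 or 3 of either 9 h group. Each of the 4 libraries at 24 h ended some call of these lists when left out. The lowest counts were then 1 higher cell cycle target, no metabolic target, 1 higher autophagy target, 1 lower and no higher death target, 3 lower regulators and no paralogue. Without the 5 libraries, 1 higher and 2 lower cell cycle targets, no metabolic target, 2 higher and 1 lower autophagy targets, 2 lower death targets, 3 lower regulators and no paralogue were called at 24 h. The SKP2 call at 9 h was then lost as well, and the calls of single genes named here at 12 and 15 h were kept. At 24 h each group then held 1 library, so these counts rest on spread taken from the other groups.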

How the data were processed

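Poly(A) RNA libraries were made with a stranded kit and read as single 75 nt ends, per the labels' protocols. The submitters' processing notes name the GRCh38.p7 genome and the tools Subread 1.5.1, Bowtie2 2.2.9, TopHat2 2.1.1 and FastQC 0.11.3. The authors deposited, per the file headers, unnormalized counts of reads for each gene name, made by featureCounts 1.5.1 over the exons of GENCODE 25 with strand ignored. Reads of a gene and of an overlapping antisense gene can therefore not be told apart, and the share of exonic bases that overlap another gene was computed from the files' positions. A deposited table of the whole series was not used here.

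The tests used edgeR 4.0.16 in R 4.3.3. Of 56269 gene names, 15787 passed filterByExpr by group. TMM factors were 0.927 to 1.081, and 1 quasi-likelihood fit of all 31 libraries (20 residual degrees of freedom, common biological coefficient of variation 6.55%) gave 25 contrasts, with Benjamini-Hochberg adjustment over all tested genes and a threshold of 0.05. SE is the log2 fold change divided by the root of F, and 95% intervals use the 20 degrees of freedom. Replicates differed by more than sampling noise, at 5.47 to 10.02 for chi-square over its degrees of freedom, and each library was counted as 1 sample. In simulated counts for palbociclib 12 h against DMSO 12 h over 15787 genes, 71.6% of 67 genes changed 1.5-fold, 92.5% of 67 changed 2-fold and 98.5% of 66 changed 4-fold were called, and 6 of 15587 unchanged genes.

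The 8 genes and the lists were chosen with earlier results of these data known. From each list up to 4 called genes per contrast and direction, by smallest p, could be named, besides genes too low to test. A marker and a regulator counted in the lists are not reported here by name. Likeness used log2 CPM with a prior count of 2 over 11150 genes with a mean of at least 1. Alternatives were DESeq2 1.42.0, its size factors, library totals alone, no filter on low counts, each contrast's own libraries only, the replicate number as a block, each library left out, the 5 libraries left out, and, chosen after seeing the data, the within-group axis as a covariate.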

Additional observations from a re-analysis of the deposited data

How the results depend on the processing

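Of 2792 values of the 8 genes under the alternatives, 2703 kept their side of the threshold, 63 lost a call and 26 gained one. No called value turned round, but 73 uncalled values among the 2703 changed sign. Counts of called genes that moved by over 1.5 times are given here, and the cause was not tested. The 1 higher gene (CCNG2) became 0 at DMSO 9 h against 0 h and at palbociclib 24 h against 0 h, each with library totals alone and with no filter. It became 0 at palbociclib 9 h against DMSO 9 h with that contrast's own libraries only and without the 5 libraries. At DMSO 12 h against 0 h 0 became 1 with own libraries only. At palbociclib 24 h against DMSO 24 h 0 lower became 1 with no filter (PDK4, −0.75, adjusted p = 0.0346). At DMSO 15 h against 12 h 0 higher became 1 (TXNIP) with no filter, with own libraries only and with the axis covariate. Without the 5 libraries, DMSO 24 h against 15 h had 2 higher in place of 6 and 0 lower in place of 1, palbociclib 12 h against 9 h had 1 lower in place of 2, and palbociclib 24 h against 15 h had 0 higher in place of 3. In the growth of the palbociclib difference, 0 higher became 1 from 9 to 15 h with library totals alone (CCNG2, adjusted p = 0.0355), and 0 lower became 1 from 9 to 24 h with no filter (TXNIP, −0.39, adjusted p = 0.0371).

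With 1 library left out, the counts ranged from 0 to 1 higher at DMSO 9 h and DMSO 12 h and at palbociclib 24 h, each against 0 h, from 0 to 1 higher at palbociclib 9 h against DMSO 9 h, and from 1 to 2 lower at DMSO 12 h against 9 h and at palbociclib 12 h against 9 h. They ranged from 2 to 5 higher and 0 to 1 lower at DMSO 24 h against 15 h, from 1 to 2 higher at palbociclib 24 h against 15 h, and from 0 to 1 higher in the growth from 9 to 15 h. Where this left a 24 h group with 1 library, that library was assumed to vary like the other groups.

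The labels do not say that replicate numbers pair libraries, and same-numbered libraries did not all deviate together: replicate 1 at DMSO 3 h and 0 h correlated at 0.0609 and replicate 2 at 0.39. With the replicate block 195 of 200 values were unchanged in call, 1 lost its call (FOXO1, palbociclib 24 h against 15 h, 0.31, adjusted p = 0.0522) and 4 gained one, among them the growth of the CCNG2 difference from 9 to 15 h (adjusted p = 0.0443), where 1 gene in place of 0 was called. Low counts of PDK4 and FBXO32 after release limit their precision, and with 2 libraries in each 24 h group the late steps rest on few values.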
